A study of Mus musculus with 11 samples.

Results

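The effect of all-trans retinoic acid (ATRA) on gene expression in mouse hematopoietic stem cells (HSCs) was taken as an average over 2 backgrounds, without and with polyI:C (pIC). For each gene the contrast was the mean of 2 differences, ATRA minus PBS and ATRA+pIC minus pIC. All 11 arrays of the study entered it, and 22180 genes were tested, each by 1 probe set. The mice had been injected with PBS (3 arrays), with ATRA (3 arrays), with pIC (2 arrays), or with ATRA and then pIC (3 arrays, called ATRA+pIC here and RApIC in the labels), and the HSCs were sorted by flow cytometry. The sources used here do not give the strain, genotype, age, doses, injection times, sorting gate or any pooling of mice. Values are log2 intensities, and an effect is a difference in log2 units ± its standard error (SE), both taken from a limma model with 4 group means. A gene was said to rise or fall where its limma p, adjusted by Benjamini-Hochberg over all genes, was under 0.05. In bulk RNA, a change in the make-up of the sorted cells and a change in RNA per cell cannot be told apart.

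ATRA is the active form of vitamin A. It enters the nucleus and binds retinoic acid receptors, which sit on DNA as heterodimers with retinoid X receptors and switch on target genes, among them enzymes that lower retinoic acid again. PolyI:C, a synthetic RNA duplex, is sensed like viral RNA. It raises type I interferon, which drives HSCs out of quiescence. An average over both backgrounds asks for which genes the mean of both ATRA effects departs from no change. It uses more arrays than either background alone. A large effect in a single background can give such a mean by itself, so the average does not show that an effect is present in both.

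ATRA+pIC replicate 2 lay apart from its group. On the first principal component it was at -4.53, against 23.3 and 35.8 for the other ATRA+pIC arrays, 35.0 and 37.8 for the pIC arrays, and -24.5 to -15.1 for the arrays without pIC. Its median over 40 type I interferon targets was 1.07 above the PBS mean, against 1.94 to 2.24 on the other arrays with pIC. Counts and values are therefore also given over 10 arrays, without this array. The stem-cell gene Kit gave 11.71 to 12.46 on all arrays. A single gene cannot show which cells were sorted or how an array was treated. T- and NK-cell markers moved with pIC: the summed intensity of 21 markers was 1728 to 2231 on arrays without pIC, and 10810 and 11055 on the pIC arrays. For ATRA+pIC it was 2251 on replicate 2 and 9912 and 12512 on the others. The sum is weighted to the brightest markers, and the typical marker moved less. Relative to the PBS mean, the median of these markers was 0.29 and 0.73 on the pIC arrays. With ATRA+pIC it was 0.04 on replicate 2 and 0.95 and 0.93 on the others. The deposited values carry no detection calls.

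Retinoic acid receptors bind direct repeats of a short core motif. The RefSeq promoter windows (build GRCm38.p6, 250 bases before to 50 after a transcript start) were searched on both strands for 2 core motifs spaced by 5, 2 or 1 bases. A core motif was AGGTCA or AGTTCA, or else GGGTCA or GGTTCA, in any pairing. Of 32851 windows, 0.588% held such a repeat. Among genes tested with a window it was 71 of 16990 (0.418%), among genes that rose 0 of 8, and for the 1 gene that fell it was 0 of 1. At an unadjusted p under 0.05 it was 3 of 665 higher genes (0.451%) and 7 of 1171 lower genes (0.598%). No match means only that these letters are not in the window searched. The window of Rarb, which encodes a retinoic acid receptor that is itself a target, holds a repeat with a spacing of 5 from -53 to -37 relative to the transcript start. It is shown for chr14:16575427-16575726, minus strand, 5′ to 3′, with the repeat in capitals.
Rarb promoter: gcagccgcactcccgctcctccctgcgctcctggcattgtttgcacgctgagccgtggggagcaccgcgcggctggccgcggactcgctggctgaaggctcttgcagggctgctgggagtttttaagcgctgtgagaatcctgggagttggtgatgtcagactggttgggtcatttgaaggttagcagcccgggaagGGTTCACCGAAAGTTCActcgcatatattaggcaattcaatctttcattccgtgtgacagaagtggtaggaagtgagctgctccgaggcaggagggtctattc

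Averaged over both backgrounds, 8 genes rose with ATRA and 1 fell. Those that rose were Dhrs3, P2rx7, P2rx4, Emb, Tmem176a, Gda, Pbld1 and Pde2a, and the gene that fell was Ect2. These 9 are 0.0406% of the genes tested (0.0361% higher and 0.00451% lower). Without adjustment (p under 0.05) there were 2382 genes (10.7%), of which 938 were higher (4.23%) and 1444 lower (6.51%). The share of higher genes among them was 39.4% in the deposited values and 53.5% after cyclic loess scaling. In all 9 called genes the arrays with ATRA did not overlap those without it in either background. Over all genes this held for 242 in the higher (1.09%) and 422 in the lower direction (1.9%). Without ATRA+pIC replicate 2, 6 genes rose (0.0271%) and 0 fell. By limma without adjustment, 2152 genes (9.7%) then had a p under 0.05, 861 higher (3.88%) and 1291 lower (5.82%). Dhrs3, P2rx7, P2rx4, Emb and Tmem176a were in both lists, which is 55.6% of the first and 83.3% of the second. Gimap5 was in the second only, and Gda, Pbld1, Pde2a and Ect2 in the first only.

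**Figure D1:**
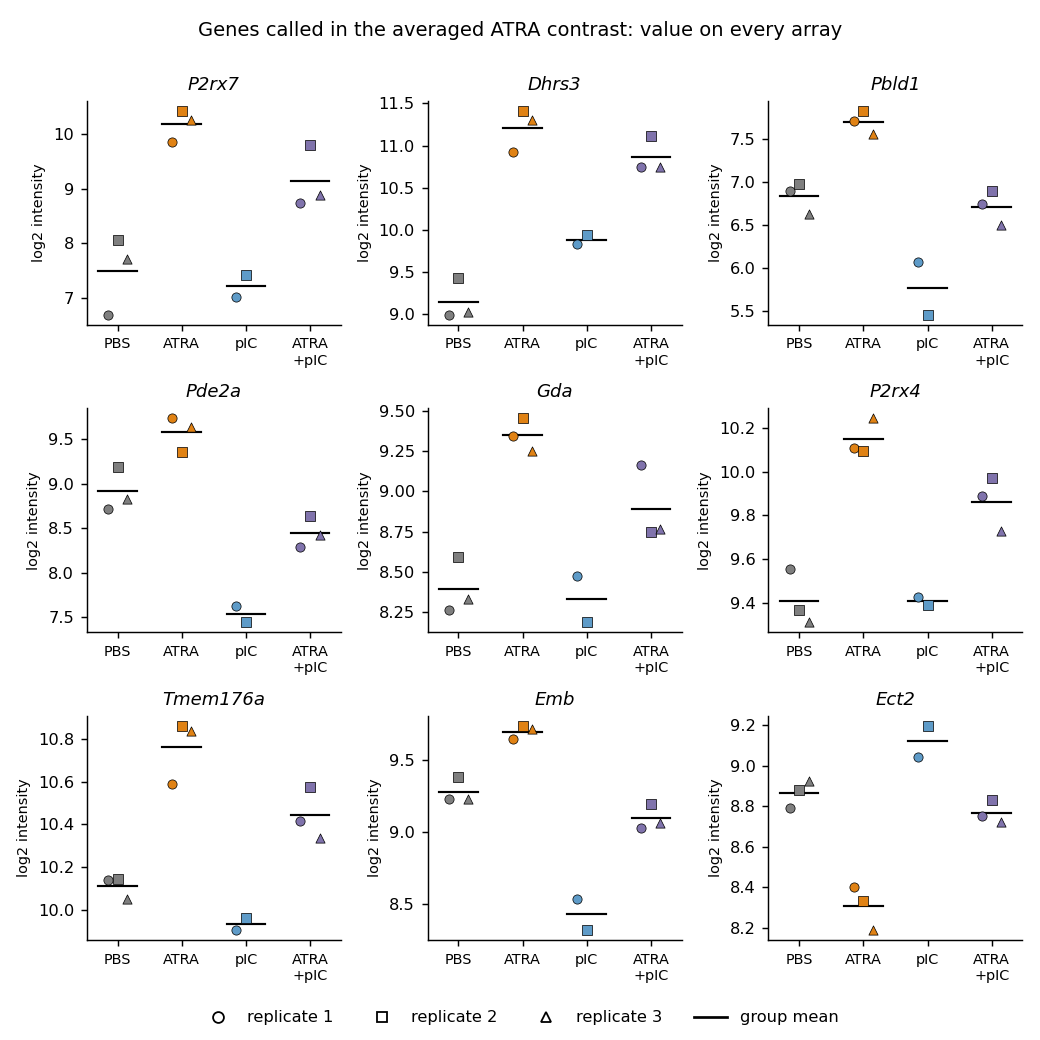
Log2 intensity (vertical axis) of the 9 called genes on each array, by group; marker shape gives the replicate number and the bar the group mean, and each panel has its own scale. In every panel the ATRA arrays lie clear of the PBS arrays and the ATRA+pIC arrays clear of the pIC arrays, downward for Ect2 and upward for the other 8.

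Retinoid genes gave 1 call. Dhrs3 encodes a reductase that turns retinal back into retinol and so holds down retinoic acid synthesis. It read 8.997, 9.43 and 9.03 on the PBS arrays and 10.92, 11.41 and 11.30 on the ATRA arrays. With pIC it was 9.83 and 9.94, and with ATRA+pIC 10.74, 11.12 and 10.74. All arrays with ATRA were thus above all arrays without it, with the wider gap in the absence of pIC. The averaged rise was 1.52 ± 0.12, or 2.87-fold (limma adjusted p 0.00175). It was 2.06 without and 0.98 with pIC, and the difference of -1.08 (95% interval -1.60 to -0.55, limma p 0.000917) did not pass over all genes (adjusted p 0.702). Dhrs3 passed without each array in turn (adjusted p 0.00159 to 0.0252) and in each of 9 other settings (5.58e-05 to 0.0244).

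No other retinoic acid response gene passed. For Rarb, the receptor gene with the repeat shown above, the PBS arrays gave 6.74, 6.86 and 6.43 and the ATRA arrays 7.70, 8.26 and 7.88. Its pIC arrays gave 5.50 and 5.98, and its ATRA+pIC arrays 6.21, 7.27 and 6.74. The groups did not overlap in either background, although ATRA+pIC replicate 1 was only just above the pIC arrays. The average was 1.14 ± 0.19 (limma adjusted p 0.0912), and it passed without ATRA+pIC replicate 1 (1.27, adjusted p 0.0305). Cyp26b1, a cytochrome that degrades retinoic acid, averaged 1.25 ± 0.24 (adjusted p 0.132), with 1.82 without and 0.69 with pIC. Its ATRA+pIC arrays at 6.87, 8.11 and 7.97 overlapped the pIC arrays at 7.09 and 6.83, and it too passed without ATRA+pIC replicate 1 (1.45, adjusted p 0.0305). Tgm2, a transglutaminase, averaged 0.48 ± 0.08 (adjusted p 0.0832), and Rarg, a retinoic acid receptor of HSCs, 0.11 ± 0.07 (adjusted p 0.607). Of 19 measured retinoic acid response genes 1 rose and 0 fell (0.0361% and 0.00451% of all genes). By unadjusted p under 0.05, 6 were higher and 0 lower (4.23% and 6.51% of all genes). The median was 0.08 beside -0.01 for all genes (0.05 without PBS replicate 2 or ATRA+pIC replicate 1). By sign, 14 averages were positive and 5 negative, the lowest -0.09 for the repressor gene Hic1. Besides those named, the 6 were Ccr9, a homing receptor (0.30), and Nrip1, a receptor cofactor (0.14). The list of 24 retinoid enzymes and carriers had a median of -0.02 and that of 16 receptors and cofactors 0.03, with no member of either called. Dhrs3, Cyp26b1 and Rarb had been placed among the response genes and are in neither list. The highest averages left in the lists were 0.25 and 0.15, so their lack of calls does not speak for all retinoid enzymes and receptors.

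Both genes of the purinergic list that rose encode ATP-gated ion channels. P2rx7 opens to extracellular ATP at high concentration and is known for its part in inflammasome activation. It gave 6.70, 8.06 and 7.72 with PBS, against 9.84, 10.42 and 10.26 with ATRA. With pIC it gave 7.03 and 7.42, against 8.74, 9.79 and 8.89 with ATRA+pIC. The replicates of P2rx7 were spread widest with PBS, yet the highest array without ATRA in either background, at 8.06, was below the lowest with it. Its averaged rise of 2.30 ± 0.26 (4.91-fold, limma adjusted p 0.0239) was the greatest of all genes tested, with 2.68 without and 1.92 with pIC.

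P2rx4, which opens at lower ATP concentrations, gave 9.55, 9.37 and 9.31 with PBS and 10.11, 10.09 and 10.24 with ATRA. Its pIC arrays gave 9.42 and 9.39 and its ATRA+pIC arrays 9.89, 9.97 and 9.73. The arrays without ATRA were close to each other, pIC included, and all arrays with ATRA were above them. P2rx4 rose by 0.60 ± 0.07, or 1.51-fold (limma adjusted p 0.0239). In the RefSeq order of protein-coding genes (GRCm38.p6), P2rx7 and P2rx4 are next to each other. The genes on the outer sides did not pass: Ift81, a transport protein of cilia, had 0.31 ± 0.14 and Camkk2, a calcium-dependent kinase, 0.22 ± 0.09 (adjusted p 0.465 and 0.412). Leaving out PBS replicate 3, any ATRA array or either pIC array ended the call of both genes (adjusted p 0.0536 to 0.169).

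Of the 20 measured purinergic receptors and ectonucleotidases, 2 rose and 0 fell (0.0361% and 0.00451% of all genes). Before adjustment (p under 0.05), 4 were higher and 0 lower (4.23% and 6.51% of all genes), with a list median of 0.09. The list was chosen with earlier results of these data known. The other two were the lysophospholipid receptor P2ry10 (0.72 ± 0.17) and the nucleotide receptor P2ry2 (0.28 ± 0.11), at adjusted p 0.179 and 0.395. P2ry2 had 0.70 without pIC and -0.15 with it. Its difference between backgrounds, -0.85 (limma p 0.00259), did not pass over all genes (adjusted p 0.742).

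Tmem176a rose, and its neighbours on one side had positive averages. Tmem176a, a membrane protein that spans the membrane several times and is known from dendritic cells, gave 10.14, 10.15 and 10.05 with PBS and 10.59, 10.86 and 10.84 with ATRA. It gave 9.90 and 9.96 with pIC and 10.41, 10.57 and 10.34 with ATRA+pIC. Arrays with ATRA were above those without it, and the pIC arrays were a little below PBS. Its rise was 0.58 ± 0.07, or 1.49-fold (limma adjusted p 0.0249), and the call was lost when PBS replicate 1 or 3, ATRA replicate 2 or 3, or either pIC array was left out (adjusted p 0.0710 to 0.169). Its paralog Tmem176b, the next gene, averaged 0.39 ± 0.06 with no overlap in either background (adjusted p 0.0553). It passed after cyclic loess scaling, with the dimmest 40% of genes left out, with array weights, with a trend and robust prior, and with a spread of its own for each background (adjusted p 0.00711 to 0.0497), and in none of the 11 runs with an array left out (0.0539 to 0.292).

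The promoter windows of Tmem176a and Tmem176b lie on opposite strands and share sequence. Opposite-strand windows of different genes overlapped for 1568 of the 16990 genes with a window (9.23%). The table holds 2 windows for Tmem176a and 3 for Tmem176b. The first Tmem176a window, chr6:48841233-48841532 on the plus strand (GRCm38.p6), shares 208 bases with the Tmem176b window chr6:48841325-48841624. It is shown 5′ to 3′ because Tmem176a was called and Tmem176b narrowly missed, with the shared bases in capitals, and neither gene's windows held a receptor repeat as defined above.
Tmem176a promoter: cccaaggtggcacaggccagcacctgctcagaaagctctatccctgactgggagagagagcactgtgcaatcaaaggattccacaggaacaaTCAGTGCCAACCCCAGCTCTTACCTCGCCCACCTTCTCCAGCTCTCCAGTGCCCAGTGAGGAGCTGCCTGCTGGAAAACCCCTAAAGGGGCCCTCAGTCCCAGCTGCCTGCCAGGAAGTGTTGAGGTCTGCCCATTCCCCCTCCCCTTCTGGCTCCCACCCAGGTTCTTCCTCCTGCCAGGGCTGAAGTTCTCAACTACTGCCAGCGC

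On the other side of Tmem176b lie the Gimap genes, GTPases known for lymphocyte survival. Gimap5, required for the upkeep of T cells and HSCs, gave 9.99, 10.09 and 9.92 with PBS and 10.43, 10.54 and 10.70 with ATRA. Its level was 8.96 and 8.85 with pIC and 9.42, 10.24 and 9.62 with ATRA+pIC. The groups did not overlap in either background, and ATRA+pIC replicate 2 was the highest of its group. Its average was 0.71 ± 0.13 (limma adjusted p 0.125) over 11 arrays and 0.59 (adjusted p 0.0499) without ATRA+pIC replicate 2. It also passed without ATRA+pIC replicate 1 (adjusted p 0.0483).

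The 8 measured Gimap genes, looked at after their values were seen, all had positive averages, from 0.13 for Gimap9 to 0.75 ± 0.17 for Gimap6 (limma adjusted p 0.164, and 0.0303 without ATRA+pIC replicate 1), with a median of 0.44. Of them 0 were called, and 5 were higher at an unadjusted p under 0.05 (4.23% of all genes). Beyond Tmem176a the measured genes Aoc1, Doxl1, Doxl2 and Svs1 had averages of -0.02 to 0.06. Gimap4 was spread most, at 0.40 ± 0.36, and had 0.78 (adjusted p 0.0825) without ATRA+pIC replicate 2. Since Gimap genes are active in lymphocytes, the T- and NK-cell markers are set beside them: these averaged a median of 0.13 over 11 arrays, 0.24 without ATRA+pIC replicate 2, and -0.02 or -0.03 when replicate 1 of pIC or of ATRA+pIC was left out. Over 11 arrays 0 of 21 were higher at an unadjusted p under 0.05, and 10 without ATRA+pIC replicate 2 (4.23% and 3.88% of all genes). Gimap4 was at 7.39, 7.45 and 7.39 with PBS, 7.84 and 8.32 with pIC, and 9.49, 7.18 and 9.37 with ATRA+pIC, and so followed these markers, low replicate 2 included. Gimap7 did so in part, with 7.23, 6.16 and 6.88 on the ATRA+pIC arrays. Its pIC arrays gave 5.99 and 6.70, the first within the PBS values of 5.96, 5.95 and 6.25. Replicate 2 was also the lowest ATRA+pIC array for Gimap3, at 7.05 beside 7.41 and 7.62. Gimap1, Gimap5, Gimap6 and Gimap8 went the other way. These genes were lower on the pIC arrays than on the PBS arrays, and replicate 2 was the highest ATRA+pIC array. The part of these markers in the Gimap values was not tested.

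**Figure D2:**
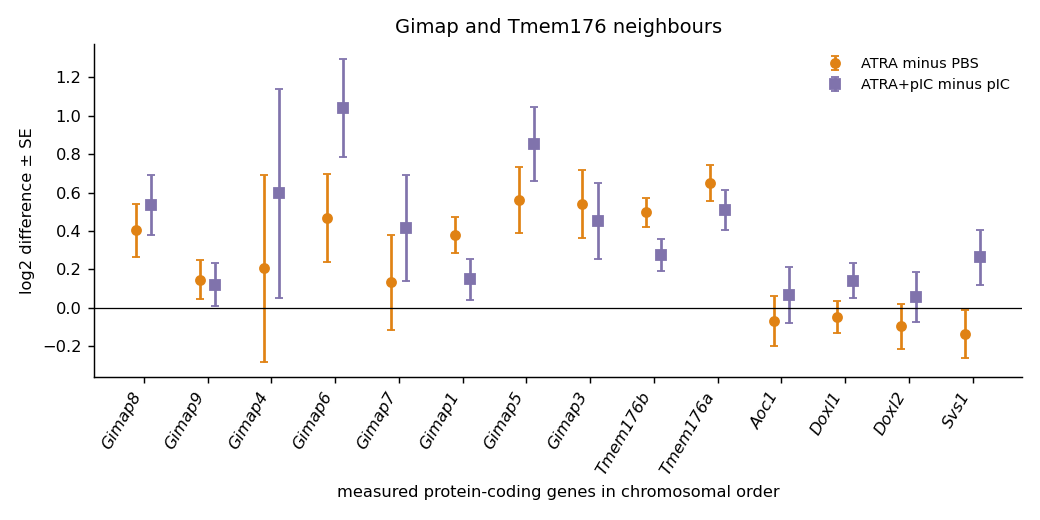
ATRA effect (log2 difference ± SE) without pIC (circles) and with pIC (squares) for measured protein-coding genes in chromosomal order from Gimap8 to Svs1. The 8 Gimap genes and both Tmem176 genes lie above 0 in both backgrounds, whereas Aoc1 and the genes after it lie between -0.14 and 0.26.

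Among the remaining genes that rose, 2 act in purine and cyclic nucleotide turnover. Gda, guanine deaminase, which breaks guanine down to xanthine, gave 8.26, 8.59 and 8.33 with PBS and 9.34, 9.45 and 9.25 with ATRA. It gave 8.47 and 8.19 with pIC and 9.16, 8.74 and 8.76 with ATRA+pIC. It rose by 0.76 ± 0.10, or 1.69-fold (limma adjusted p 0.0436), with 0.95 without and 0.56 with pIC. Pde2a, a phosphodiesterase that hydrolyses cAMP and cGMP, gave 8.72, 9.19 and 8.83 with PBS and 9.73, 9.36 and 9.63 with ATRA. With pIC it was at 7.62 and 7.44, and with ATRA+pIC it was at 8.29, 8.64 and 8.42, so the ATRA+pIC arrays were above pIC and below PBS. Pde2a rose by 0.79 ± 0.11, or 1.73-fold (adjusted p 0.0436). Both genes missed the threshold without 9 of the 11 arrays in turn, PBS replicate 2 and ATRA+pIC replicate 1 excepted. Adjusted p was then 0.0558 to 0.227 for Gda and 0.0671 to 0.227 for Pde2a.

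Emb and Pbld1 shared the order of groups seen for Pde2a in their means, with ATRA+pIC between pIC and PBS. Emb encodes embigin, a cell-surface glycoprotein that serves as chaperone of a monocarboxylate transporter and marks progenitors. It gave 9.23, 9.38 and 9.23 with PBS and 9.64, 9.74 and 9.71 with ATRA, then 8.54 and 8.32 with pIC and 9.03, 9.20 and 9.07 with ATRA+pIC. Each group of Emb was clear of the others, with ATRA highest and pIC lowest. Emb rose by 0.54 ± 0.06, or 1.46-fold (limma adjusted p 0.0239). Its second probe set read -0.01 (limma p 0.85), and the mean of both did not pass (0.27, adjusted p 0.145). Emb was also no longer called once PBS replicate 1 or 3, any ATRA array, pIC replicate 2 or ATRA+pIC replicate 3 was removed (adjusted p 0.0536 to 0.169).

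Pbld1, a protein of the phenazine-biosynthesis fold family, gave 6.90, 6.98 and 6.63 with PBS and 7.72, 7.83 and 7.56 with ATRA. It gave 6.07 and 5.46 with pIC and 6.75, 6.90 and 6.50 with ATRA+pIC, so the ATRA+pIC arrays overlapped those of PBS. The rise was 0.91 ± 0.12, or 1.88-fold (limma adjusted p 0.0436), nearly equal at 0.87 without and 0.95 with pIC. It passed without pIC replicate 1 (adjusted p 0.0274) and missed without each of the other 10 arrays (0.0566 to 0.183). The neighbouring paralog Pbld2 had 0.27 ± 0.22 and did not pass (adjusted p 0.697).

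Emb was placed on a list of multipotent and lymphoid-primed progenitor genes, of which 1 of 23 rose and 0 fell (0.0361% and 0.00451% of all genes). The median was 0.05 (0.03 without pIC replicate 1 and 0.13 without pIC replicate 2). At an unadjusted p under 0.05 (4.23% of all genes higher and 6.51% lower), 4 were higher and 0 lower. These were Emb, the chromatin organiser Satb1 (0.60 ± 0.17), the cytokine receptor Flt3 (0.71 ± 0.21) and the co-receptor Cd27 (0.16 ± 0.07), the last 3 at adjusted p 0.223, 0.254 and 0.452. Flt3 was at 7.23 and 6.51 with pIC and at 7.68, 8.54 and 7.33 with ATRA+pIC. The highest of these was replicate 2, and without it the Flt3 average was 0.53.

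The gene that fell, Ect2, encodes the exchange factor that activates RhoA at the cell equator so that a dividing cell can split. It gave 8.79, 8.88 and 8.92 with PBS and 8.40, 8.33 and 8.19 with ATRA. It gave 9.04 and 9.20 with pIC and 8.75, 8.83 and 8.72 with ATRA+pIC. The ATRA+pIC arrays were below the pIC arrays and close to the PBS arrays. Ect2 fell by 0.45 ± 0.06, or 1.37-fold (limma adjusted p 0.0436), with -0.56 without and -0.35 with pIC. The call was lost without each of the 11 arrays in turn (adjusted p 0.0566 to 0.227), while the average stayed at -0.49 to -0.42.

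G2/M and mitosis genes, the list that holds Ect2, were lower with ATRA in both backgrounds. All 39 measured members had a negative average, from -0.53 to -0.14, with a median of -0.33 beside -0.01 for all genes. By the adjusted p 1 fell (0.00451% of all genes). At an unadjusted p under 0.05, 35 were lower and 0 higher (6.51% and 4.23% of all genes). The arrays did not overlap in either background for 19 members, all lower with ATRA (1.9% of all genes lower and 1.09% higher). On the single arrays the list median, relative to the PBS mean, was -0.26, -0.41 and -0.50 with ATRA, 0.46 and 0.48 with pIC, and 0.22, 0.16 and 0.26 with ATRA+pIC. The ATRA arrays were therefore below every PBS array and the ATRA+pIC arrays below both pIC arrays while above every PBS array. The median was -0.30 without ATRA+pIC replicate 2, and -0.35 to -0.29 with each array left out in turn. Without pIC all 39 were negative, with a median of -0.40, and 32 had an unadjusted p under 0.05 (3.51% of all genes were lower by this rule and 3.29% higher, 6.8% in all). With pIC 38 of 39 were negative, with a median of -0.24, and 16 had an unadjusted p under 0.05, all lower (6.54% of all genes lower, 3.57% higher). Kif23, a spindle motor, was the member that was not.

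Among single mitosis genes, Aurka, the kinase that matures centrosomes, gave 8.18, 8.35 and 8.31 with PBS and 7.94, 7.98 and 7.85 with ATRA. It gave 8.91 and 9.10 with pIC and 8.66, 8.17 and 8.48 with ATRA+pIC. Within each background every array with ATRA was below every array without it, with replicate 2 the lowest with ATRA+pIC, and the Aurka average was -0.46 ± 0.09 (limma adjusted p 0.132). Cenpa, the histone variant of centromeres, had -0.29 in each background (average -0.29 ± 0.06, adjusted p 0.132). Birc5, or survivin, averaged -0.41 ± 0.08 and the cytokinesis regulator Racgap1 -0.35 ± 0.07 (adjusted p 0.139 and 0.133). For 6 members the difference between backgrounds had an unadjusted p under 0.05, always with the smaller loss under pIC (2.38% of all genes were more positive under pIC by this rule and 3.89% more negative). The proliferation antigen gene Mki67 was among them, with -0.48 without and -0.02 with pIC (limma p 0.00311), as was the spindle motor gene Kif2c, with -0.49 and -0.03 (p 0.00494). No difference passed over all genes.

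**Figure D3:**
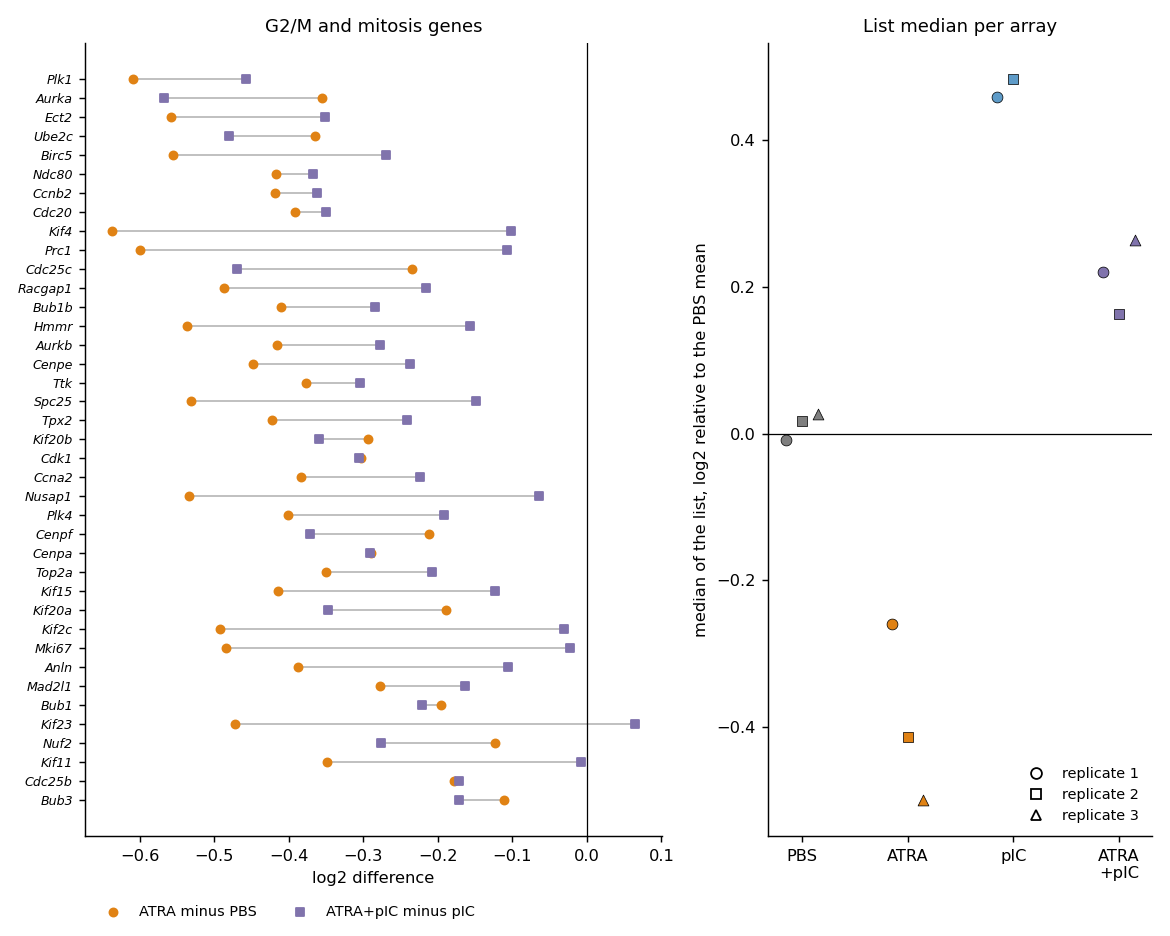
Left, ATRA effect (log2 difference) of 39 G2/M and mitosis genes without pIC (circles) and with pIC (squares), ordered by their average; right, the list median on each array relative to the PBS mean. All circles and all squares but that of Kif23 lie below 0, and the ATRA+pIC arrays at 0.16 to 0.26 lie between the pIC arrays at 0.46 and 0.48 and the PBS arrays.

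DNA replication and G1/S genes had smaller negative averages. All 34 measured members were negative, with a median of -0.13, and 0 were called. Without adjustment (p under 0.05), 14 were lower and 0 higher (6.51% and 4.23% of all genes). The count of lower genes was 8 without PBS replicate 3 or ATRA replicate 3, and 9 without pIC replicate 1. Fen1, the flap nuclease of lagging-strand synthesis, had the most negative value, at -0.47 ± 0.09 (limma adjusted p 0.125). It was at 8.76 and 8.52 with pIC and at 8.08, 7.92 and 8.19 with ATRA+pIC. Mcm10, a replication initiation factor, averaged -0.35 ± 0.08, the clamp-loader subunit Rfc3 -0.26 ± 0.06, and the ribonucleotide reductase subunits Rrm1 and Rrm2 -0.23 ± 0.06 and -0.36 ± 0.09 (limma adjusted p 0.168 to 0.197). Of 12 G1 cyclins and kinases all were negative on average but 6 were positive without pIC. Their median was -0.09, and 0 were called. The ubiquitin ligase subunit Skp2, which removes a CDK inhibitor, had -0.22 ± 0.07, the G1 kinase Cdk6 -0.16 ± 0.07, and the cyclin Ccnd1 -0.08 ± 0.12 (adjusted p 0.266, 0.434 and 0.86).

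Genes that hold cells out of cycle showed no common direction. Of 25 CDK inhibitors and quiescence genes, 13 had positive and 12 negative averages, 0 were called, and the median was 0.02, and -0.02 without ATRA+pIC replicate 2. The antiproliferative gene Btg1 averaged 0.28 ± 0.06 with no overlap in either background (limma adjusted p 0.139). Cdkn1c, the inhibitor p57 of quiescent HSCs, had 0.28 ± 0.11 and the early-response factor Egr1 0.42 ± 0.14 (adjusted p 0.407 and 0.328). Egr1 was at 8.04 and 7.97 with pIC and at 8.22, 8.87 and 8.99 with ATRA+pIC, all clear of pIC, whereas its ATRA and PBS arrays overlapped.

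HSC identity genes went both ways. Of 40 measured genes 0 were called. By unadjusted p under 0.05, 5 were higher and 4 lower (4.23% and 6.51% of all genes), and the median was 0.06. Without ATRA+pIC replicate 2 the median was 0.01, and without replicate 1 it was 0.12, with 14 higher and 4 lower. Without pIC replicate 2, 4 were higher and 2 lower. The sulfotransferase gene Sult1a1, an HSC marker, gave 8.02, 8.35 and 8.24 with PBS, 8.59, 8.54 and 8.73 with ATRA, 6.88 and 6.71 with pIC, and 7.63, 7.52 and 7.22 with ATRA+pIC. Within each background all arrays with ATRA were above those without, with an average of 0.54 ± 0.09 (limma adjusted p 0.106). The homeobox gene Hoxb4, a driver of HSC expansion, averaged 0.42 ± 0.12 and the protein C receptor gene Procr, an HSC surface marker, 0.18 ± 0.07 (adjusted p 0.22 and 0.346). On the lower side were Gfi1b (-0.37 ± 0.07), the tetraspanin gene Cd9 (-0.26 ± 0.06) and the SLAM receptor gene Slamf1 (-0.26 ± 0.09), at adjusted p 0.133, 0.186 and 0.349. Gfi1b encodes a transcriptional repressor that acts within the erythroid and platelet lineages. Kit, the stem cell factor receptor gene, had 0.13 ± 0.09 and Gprc5c, a retinoic acid-inducible receptor gene of dormant HSCs, 0.03 ± 0.10 (adjusted p 0.67 and 0.94).

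For some HSC genes the average rested on ATRA+pIC replicate 2. Hlf, a transcription factor gene of HSCs, was at 9.02 and 8.73 with pIC and at 8.94, 10.48 and 9.31 with ATRA+pIC, and averaged 0.41 ± 0.22 with this array and 0.18 without it. Mecom, another HSC transcription factor gene, was at 8.76 and 8.68 with pIC and at 8.58, 9.89 and 9.13 with ATRA+pIC, with averages of 0.31 and 0.14. In both, replicate 2 was closest to the arrays without pIC, and none of these averages passed.

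Erythroid markers had negative averages. All 14 measured members were negative, with a median of -0.45 (-0.22 without and -0.72 with pIC), and 0 were called. Before adjustment (p under 0.05), 8 were lower and 0 higher (6.51% and 4.23% of all genes). Klf1, the master factor of erythroid genes, was at 9.15 and 9.42 with pIC and at 8.91, 7.34 and 8.24 with ATRA+pIC, and averaged -0.85 ± 0.22 (limma adjusted p 0.198). The transferrin receptor gene Tfrc gave 8.71 and 8.51 with pIC and 7.98, 7.62 and 7.84 with ATRA+pIC, clear of each other. Without pIC its groups overlapped, with effects of -0.05 without and -0.80 with pIC (difference -0.75, limma p 0.00277, adjusted p 0.742). The erythropoietin receptor gene Epor averaged -0.52 ± 0.16, the factor Gata1 -0.33 ± 0.12 and the blood-group gene Rhd -0.43 ± 0.17 (adjusted p 0.266, 0.33 and 0.39). Relative to the PBS mean, the list median was 0.997 and 0.996 with pIC and 0.68, -0.33 and 0.49 with ATRA+pIC. Replicate 2 of the latter was the lowest of all 11 arrays, and without it the list median was -0.29 (-0.41 with pIC), with 9 lower at an unadjusted p under 0.05. That count was 4 without PBS replicate 3 or pIC replicate 2, 5 without ATRA replicate 2, and 11 without ATRA+pIC replicate 1.

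Megakaryocyte and platelet markers were divided. Of 17 measured, 0 were called. At an unadjusted p under 0.05, 2 were higher and 4 lower (4.23% and 6.51% of all genes). The median was -0.08 (-0.04 without ATRA replicate 1, -0.05 without ATRA+pIC replicate 1 or 2). Clec1b, the receptor CLEC-2 of platelets, gave 6.61, 6.93 and 7.01 with PBS, 7.42, 7.76 and 7.60 with ATRA, 6.57 and 6.39 with pIC and 7.42, 7.54 and 7.03 with ATRA+pIC. All arrays with ATRA were above those without, and it was the nearest miss, at 0.79 ± 0.11 (limma adjusted p 0.0543). The adhesion receptor gene Selp averaged 0.53 ± 0.09 (adjusted p 0.0894). The platelet glycoprotein gene Gp5 averaged -0.45 ± 0.08 with no overlap in either background, and the pleckstrin gene Plek -0.32 ± 0.08 (adjusted p 0.125 and 0.207). The summed intensity of the list was 13215 to 14127 with PBS, 11045 to 11958 with ATRA, 12947 and 13297 with pIC and 13397 to 14572 with ATRA+pIC, thus lower with ATRA in the absence of pIC and not lower in its presence. Pf4, the platelet chemokine, was the member that differed most between backgrounds, with -0.97 without and 0.11 with pIC (difference 1.08, 95% interval 0.68 to 1.49, limma p 0.000115, adjusted p 0.512). Its average was -0.43 ± 0.09 (adjusted p 0.145).

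Oxidative metabolism showed small negative averages. Of 40 respiratory chain and ATP synthase genes 39 were negative, with a median of -0.13, and 0 were called. Without adjustment (p under 0.05), 18 were lower and 0 higher (6.51% and 4.23% of all genes). With single arrays left out the lower count was 8 to 20, at 8 when pIC replicate 1 and at 13 when ATRA+pIC replicate 2 was removed. Ndufv2 and Ndufb3, subunits of complex I, averaged -0.20 ± 0.05 and -0.25 ± 0.07 with no overlap in either background (limma adjusted p 0.211 and 0.234).

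Interferon gene lists had negative medians whose size depended on single ATRA+pIC arrays. The 40 type I interferon targets had a median of -0.20, with 37 averages negative and 3 positive, and 0 were called. Without ATRA+pIC replicate 2 the median was -0.04, and without replicate 1 it was -0.33. At an unadjusted p under 0.05, 1 of the 40 was lower and 0 higher over 11 arrays (6.51% and 4.23% of all genes). Without replicate 2, 2 were lower and 2 higher (5.82% and 3.88% of all genes). Without replicate 1, 22 were lower, where 3091 of all 22180 genes had such a p in either direction. Over 10 interferon-inducible GTPases the median was -0.35, with -0.17 without replicate 2 and -0.50 without replicate 1. For 17 MHC class I and immunoproteasome genes these were -0.12, -0.04 and -0.17, with 0 called in either list. Isg15, the ubiquitin-like modifier, was at 12.02 and 11.90 with pIC and at 12.03, 10.35 and 11.70 with ATRA+pIC, so replicate 2 alone was far below. Its average was -0.38 ± 0.25 with this array and -0.13 without it (limma adjusted p 0.639 and 0.787). For 9 MHC class II genes the median was -0.21 with the array and -0.18 without it, and 0 were called. H2-Ab1, a class II chain, averaged -0.65 ± 0.24 and had no overlap in either background (adjusted p 0.349).

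Neutrophil and endothelial markers had positive medians, and the median of mast-cell, basophil and eosinophil markers was near that of all genes. Positive medians were also found for monocyte, macrophage and dendritic markers (0.08), B-cell markers (0.03) and marrow stroma markers (0.04). Of 20 neutrophil and granulocyte-precursor markers 0 were called, with 16 averages positive and 4 negative, a median of 0.14, and 3 higher at an unadjusted p under 0.05. The protease gene Prtn3 averaged 0.40 ± 0.11 and the G-CSF receptor gene Csf3r 0.39 ± 0.11 (limma adjusted p 0.212 and 0.23). Their summed intensity was 5015 on ATRA replicate 1 and 2010 to 2787 on the other 10 arrays. Of 20 endothelial markers 0 were called, with 15 averages positive and 5 negative, a median of 0.11 (0.05 without PBS replicate 2 or ATRA+pIC replicate 2), and 4 higher at an unadjusted p under 0.05. The vascular phosphatase gene Ptprb averaged 0.48 ± 0.10 and the cadherin gene Cdh5 0.54 ± 0.14 (adjusted p 0.149 and 0.198). The 16 mast-cell, basophil and eosinophil markers had a median of -0.03 beside -0.01 for all genes, with 5 averages positive and 11 negative. Of them 0 were called, and 1 was higher and 3 lower without adjustment (4.23% and 6.51% of all genes). Integrins, selectins and homing genes had a median of 0.08 (0.12 without ATRA+pIC replicate 2), with 0 of 31 called.

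**Figure D4:**
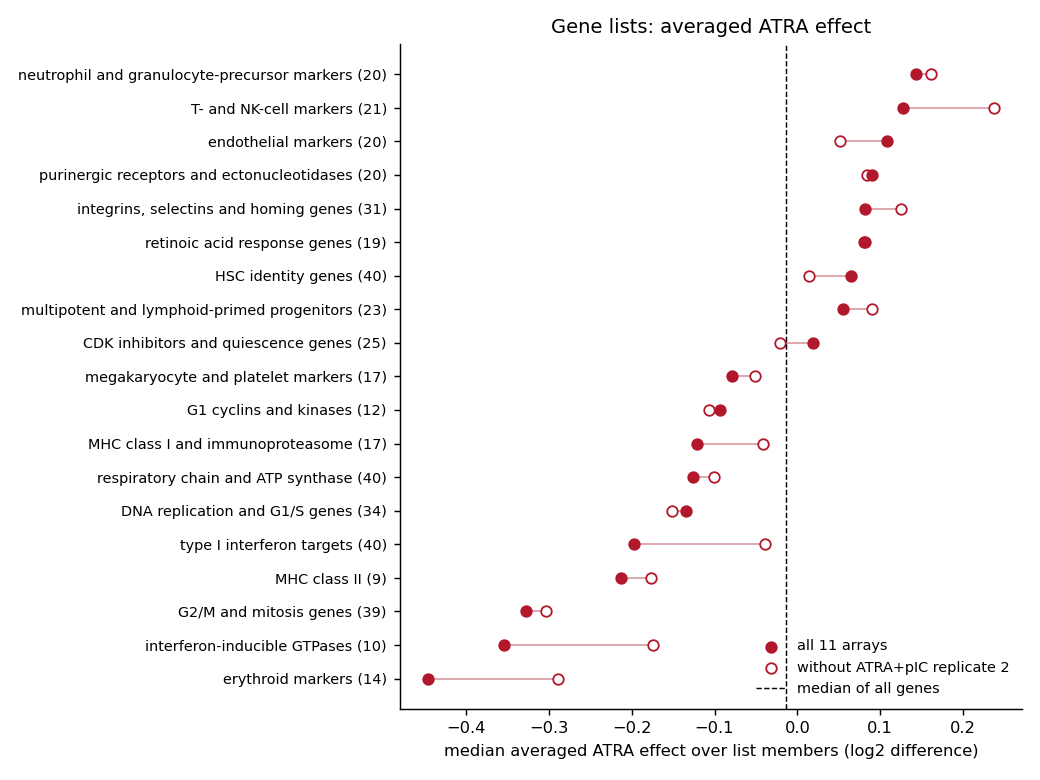
Median averaged ATRA effect (log2 difference) over the members of 19 gene lists, with the number measured in brackets; filled points use all 11 arrays, open points leave out ATRA+pIC replicate 2, and the dashed line is the median of all genes. The G2/M list is at -0.33 and -0.30, whereas the type I interferon targets move from -0.20 to -0.04.

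Whether the ATRA effect differed between the backgrounds was tested as an interaction. Limma called 0 of 22180 genes (0%) after adjustment, and 1390 (6.27%) had an unadjusted p under 0.05. With pIC replicate 1 left out 1 gene was called, and 0 in every other setting run. Of the 9 called genes, 6 had the larger effect without pIC and 3 (Emb, Pbld1 and Pde2a) with it, and 1, Dhrs3, had an unadjusted interaction p under 0.05. Singly, the contrast without pIC called 1 gene, Dhrs3 (0.00451%), and the contrast with pIC 0 (0%, with 2242 genes, 10.1%, at an unadjusted p under 0.05). Over all genes the effects in both backgrounds, which share no array, had Pearson's r = 0.21 and Spearman's rho = 0.15. The same sign in both was found for 54.9% of genes. Without ATRA+pIC replicate 2 these were 0.18, 0.12 and 53.5%. The points are genes, which are not independent, so no p is given.

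**Figure D5:**
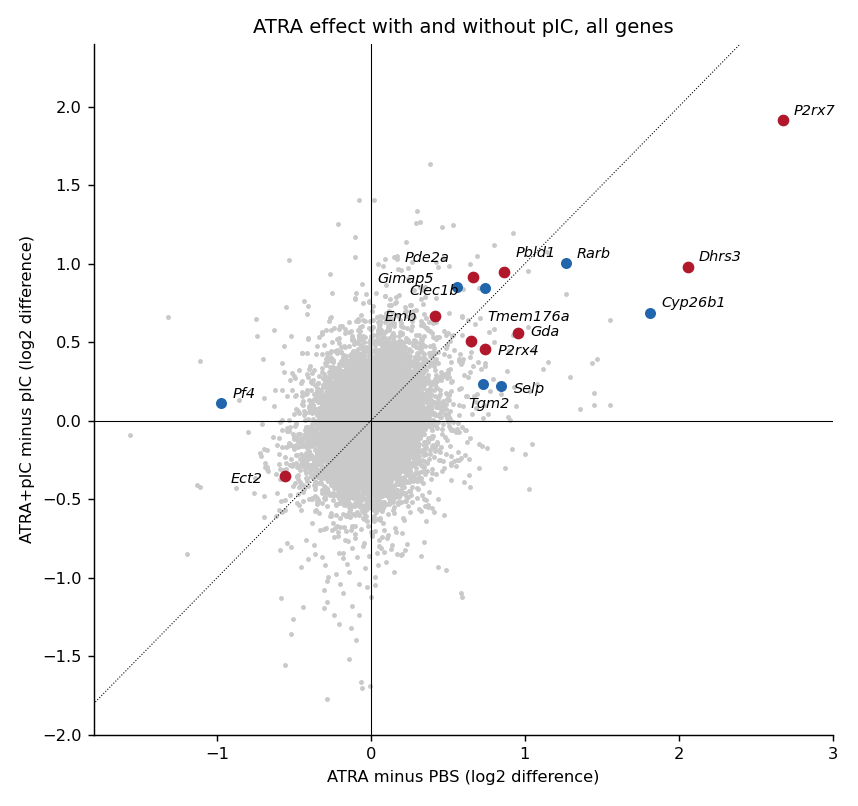
ATRA effect with pIC (vertical) against that without pIC (horizontal), both as log2 differences, for 22180 genes (grey); the 9 called genes are red, 7 others named in the text are blue, and the dotted line marks equal effects. P2rx7 and Dhrs3 lie far out on both axes and below the line, and Pf4 lies at -0.97 on the horizontal axis and near 0 on the vertical.

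The threshold fell among genes of similar adjusted p. Just inside it, at adjusted p 0.0436, were Pde2a, Pbld1, Ect2 and Gda, with averages of 0.79, 0.91, -0.45 and 0.76. Just outside were Clec1b (0.79, adjusted p 0.0543), the olfactory receptor gene Olfr1512 (0.61, 0.0553) and Tmem176b (0.39, 0.0553). Olfr1512 was dim, with a mean of 5.26 over all arrays. Its effect was 0.24 without pIC, where its arrays overlapped, and 0.98 with pIC (interaction, limma p 0.00156, adjusted p 0.742).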

How the data were processed

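Sorted HSCs of 4 groups (3 PBS, 3 ATRA, 2 pIC, 3 ATRA+pIC) were measured on Affymetrix mouse gene arrays. The deposited table holds log2 intensities of 41345 probe sets on 11 arrays; the submitters' processing notes name RMA, oligo 1.36.1 and limma 3.28.20. Array medians were 6.19 to 6.28 and no value was missing, so the values were used as they stood. The number of arrays limits the precision. Of the probe sets 23521 had 1 gene symbol in GEO's platform annotation, 1814 several and 16010 were not listed. For each of 22180 genes the probe set with the highest mean was kept (1082 genes had several).

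A model of 4 group means was fitted with limma 3.58.1 in R 4.3.3 (lmFit, eBayes), with p-values adjusted by Benjamini-Hochberg over all genes. The averaged contrast and the interaction came from this fit, which had 7 residual degrees of freedom. It was repeated without ATRA+pIC replicate 2. Differences are on the log2 scale. The scripts were tested on simulated data. Replicate numbers were not used to pair the arrays in the main fit, since no source says what they stand for. Deviations from the group means of same-numbered arrays correlated at -0.109 to 0.0976, and those of other arrays at -0.143 to 0.114. With 2 or 3 arrays a group these deviations depend on each other, so they cannot settle whether the arrays are paired. No source says that replicates were separate animals, so the p-values reflect no more than the spread among these arrays, which may be technical. The sources used here give no batches. The genes named were the called ones, the nearest misses and members of fixed gene lists, of which the text leaves some out, plus the Gimap genes and chromosomal neighbours, which were picked after their values were seen. The contrast, gene lists and members were chosen with earlier results of these data known. Alternatives were each array left out, a replicate block, cyclic loess scaling, leaving out the dimmest 40% of genes, array weights, a trend and robust prior, other choices of probe set, an additive model and a spread of its own for each background. Promoter windows, gene order and current symbols came from RefSeq tables (GRCm38.p6), read with Python 3.11.15 and pandas 2.3.3. The build of the array annotation was not stated, so no other coordinates are given.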

Additional observations from a re-analysis of the deposited data

How the results depend on the processing

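Over 11 arrays the averaged contrast called 9 genes, 8 higher and 1 lower. With each array left out in turn it called 1 to 18 (1 to 16 higher and 0 to 2 lower): 1 without PBS replicate 3, ATRA replicate 2 or pIC replicate 2, and 18 without ATRA+pIC replicate 1. Where a pIC array was left out, the other was assumed to vary like the rest. Array weights called 148 (84 higher, 64 lower). They gave ATRA+pIC replicate 3 a weight of 4.19, against 0.65 for replicate 1 and 0.37 for replicate 2, so that group rested mostly on 1 array. A trend and robust prior called 22 (18 higher, 4 lower) and a spread of its own for each background 20 (15 higher, 5 lower). Leaving out the dimmest 40% of genes called 14 (4 lower). The additive model called 2 lower genes and cyclic loess scaling 0. The replicate block called 10, of which 5 were among the 9. Whether same-numbered arrays share more than a number is not known. The interaction called 0 to 1 over the left-out arrays. The Gprc5c average was -0.0428 to 0.113 over the left-out arrays, -0.00128 with the block and -0.0210 with array weights. The median of the CDK inhibitors was -0.0349 to 0.0692 over the left-out arrays and -0.00994 in the additive model, and that of the T- and NK-cell markers -0.0251 to 0.238. The G2/M median kept its sign, at -0.348 to -0.290 over the left-out arrays. Except where leaving out genes or arrays changes the number of tests or samples, the cause was not tested. With 2 or 3 arrays a group, the median SE of the average was 0.080, so small effects could not be detected.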
